A study of Mus musculus with 6 samples.

Results

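Gene expression was compared between IKKa-null mouse embryonic fibroblasts and fibroblasts labelled IKKa+/+reconstituted, called reconstituted here. No label states that the second line was derived from the first. The comparison took 4 of the 6 arrays of the series, chosen by the genotype in the sample titles: IKKa-/- replicates 1 and 2 against IKKa+/+reconstituted replicates 1 and 2. The remaining 2 arrays were wild-type fibroblasts, whose levels are given beside some of the results as a description. All cells were embryonic fibroblasts grown in medium with 10% FCS and harvested before confluence, with no treatment named. The sources used here do not give how IKKa was put back, from which promoter, or whether each line was 1 clone or a pool. RNA was extracted with Qiagen RNeasy columns, labelled with the Illumina TotalPrep kit and hybridised to Illumina Mouse-6 V1 bead arrays, which measure 46120 targets with 1 average bead intensity each. No label states whether the replicates were separate cultures. The p-values therefore reflect the spread between these arrays alone, part or all of which may be technical.

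IKKa, the product of the gene Chuk, is a serine kinase that activates NF-kB transcription factors. With the related kinase IKKb and the regulatory subunit NEMO it forms the IKK complex, which marks the inhibitory IkB proteins for destruction and so frees NF-kB dimers to enter the nucleus. IKKa also acts in a second, noncanonical branch, in which the kinase NIK activates it and the NF-kB2 precursor is processed, and it has roles in skin and limb development that do not need its kinase activity. Fibroblasts are the connective tissue cells that lay down collagen, proteoglycans and other matrix proteins, and cells from different body sites keep different Hox and other developmental transcription factors in culture.

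Chuk is not analysed here, since no target carries its symbol in the annotation used, and the genotypes could not be checked against it. Array medians lay between 111.1 and 123.1 intensity units and the medians of the background probes between 100.8 and 114.5, so most targets were close to background. Between replicates, the correlation across probes (which are not independent) was 0.974 in IKKa-null and 0.968 in reconstituted cells. Both groups gave the neomycin resistance target and the Y-linked gene Eif2s3y above background and Xist, which coats the inactive X chromosome, within background. Wild-type cells gave the reverse, with Eif2s3y at 4.84 and 4.99 and Xist at 8.91 and 8.15 on the log2 scale. Fibroblast genes such as Col1a1, Cd44, S100a4 and Pdgfrb were above background on every array. The target for Vim, the filament protein of mesenchymal cells, was above background only in IKKa-null cells.

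Signals are given as log2 of the background-corrected, quantile-normalised intensity, in the order of replicate 1 and replicate 2. A gene was called where limma's Benjamini-Hochberg adjusted p over all 11648 tested probes was under 0.05. Where a gene was not above background on either array of the dim group, its fold is a lower bound, written "at least"; a bound under 1 is not printed. These bounds hold on the background-corrected scale. With no background correction the folds of genes near background were smaller, and for 28 of the 33 named genes with a bound the fold lay under it. Where 1 of the 2 dim arrays was above background the fold is printed without a bound, and it too depends on the correction. In bulk samples, fewer cells of a type and less RNA per cell cannot be told apart.

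Of the 11648 probes, 755 were higher (6.48%) and 804 lower (6.9%) in reconstituted cells. With 1 probe for each of 7407 named genes, 511 genes were higher (6.9%) and 551 lower (7.44%). Differences of at least 2-fold made up 353 of the higher and 336 of the lower genes, and differences of at least 8-fold 39 and 35. Of the higher genes, 128 were not above background on either IKKa-null array, and 174 of the lower genes were not above background on either reconstituted array. The median log2 change of all genes was -0.02. Among the 1748 genes with several tested probes, 1 had probes called in opposite directions.

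**Figure D1:**
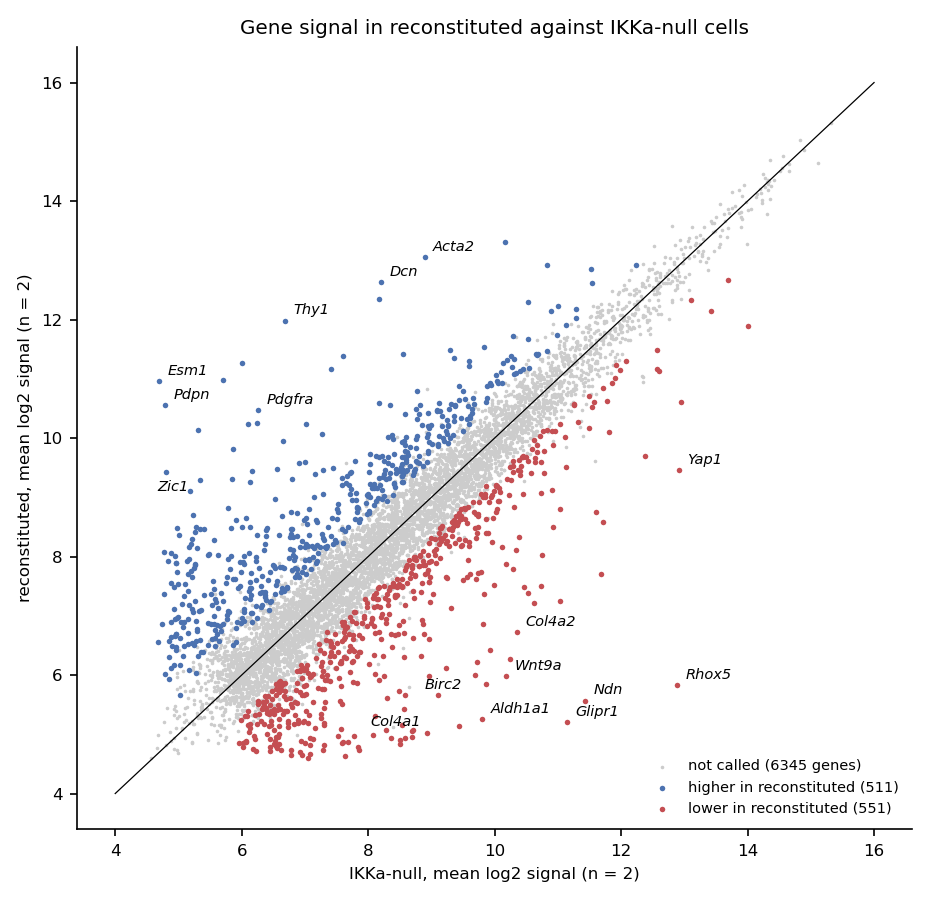
Mean log2 signal of 7407 genes in reconstituted cells (vertical axis) against IKKa-null cells (horizontal axis), n = 2 arrays each; the line marks equal signal. The 511 higher genes (blue) and 551 lower genes (red) include genes at background in 1 group, which form the bands along the left and lower edges.

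Wild-type levels were often not between those of the other groups. Both reconstituted arrays lay above the other 4 arrays for 1158 genes (15.6% of all tested) and below them for 1542 (20.8%). Among the called genes this was so for 394 of the 511 higher genes (77.1%) and 372 of the 551 lower genes (67.51%). Because the call and this count share the IKKa-null and reconstituted arrays, the higher share among called genes is a description.

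Among the 15 largest rises, 14 lay above every other array. Esm1, a secreted proteoglycan better known from endothelium, gave 4.70 and 4.68 in IKKa-null, 11.14 and 10.79 in reconstituted and 4.65 and 4.75 in wild-type cells. Its rise was at least 31.4-fold (log2 change 6.28 ± 0.19 SE, adjusted p = 2.06e-05). Crabp1, a cytoplasmic retinoic acid binding protein, gave 5.97 and 5.44 against 10.81 and 11.16, at least 31.8-fold higher, with wild-type signals of 5.97 and 5.81. Slc14a1, a urea transporter, rose at least 17.7-fold, from 5.41 and 5.21 to 10.09 and 10.18, and all 4 of its probes were called. Both reconstituted arrays thus stood far above 4 arrays at or near background for these genes. Nptx1, a secreted pentraxin of neurons, and Ramp2, a subunit of the adrenomedullin receptor, rose at least 9.87-fold and at least 14.2-fold. Medag, a gene named for its part in fat cell formation, rose 16.2-fold from 6.66 and 5.82 to 10.32 and 10.19. It was above background on 1 of the 2 IKKa-null arrays, and rose 7.68-fold with no background correction. Cyp1b1, a cytochrome P450 that acts on steroids and retinoids, was the exception to the wild-type pattern. Its signals were 6.49 and 5.71 in IKKa-null, 10.22 and 10.27 in reconstituted and 10.81 and 10.58 in wild-type cells, a 17.7-fold rise (adjusted p = 0.000284) that did not reach the wild-type arrays. Cyp1b1 was also above background on 1 of the 2 IKKa-null arrays, and rose 7.97-fold with no background correction.

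Among the 15 largest falls, 9 lay below every other array. Rhox5, an X-linked homeobox gene best known from testis and placenta, gave 12.86 and 12.90 in IKKa-null, 5.73 and 5.94 in reconstituted and 5.07 and 5.06 in wild-type cells. It fell at least 102-fold (log2 change -7.05 ± 0.17 SE, adjusted p = 1.37e-05). Glipr1, a secreted or membrane protein of the CAP family, gave 11.19 and 11.10 against 5.16 and 5.24, at least 30.7-fold lower, and 5.78 and 5.87 in wild-type cells. These transcripts were abundant only in the IKKa-null arrays. Erfe, the iron-regulating hormone erythroferrone, gave 9.86 and 9.02 against 4.75 and 5.52, at least 9.42-fold lower, while wild-type cells had 8.48 and 8.27. S100a7a, a small calcium-binding protein of epithelia, was at least 12.7-fold lower and was also above background in wild-type cells (7.54 and 8.49). Both of these were therefore low in reconstituted cells alone. Aqp5, a water channel of glands, fell at least 5.62-fold, from 8.71 and 8.68 to 5.28 and 4.82. The proliferins Prl2c2, Prl2c3 and Prl2c4, placental hormones of the prolactin family, were 15.8-fold, 13.8-fold and 15.7-fold lower, but their sequences are nearly identical and their probes may share signal, so they are uncertain as separate genes. Prl2c4 was above background on 1 of the 2 reconstituted arrays, and 7.59-fold lower with no background correction.

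**Figure D2:**
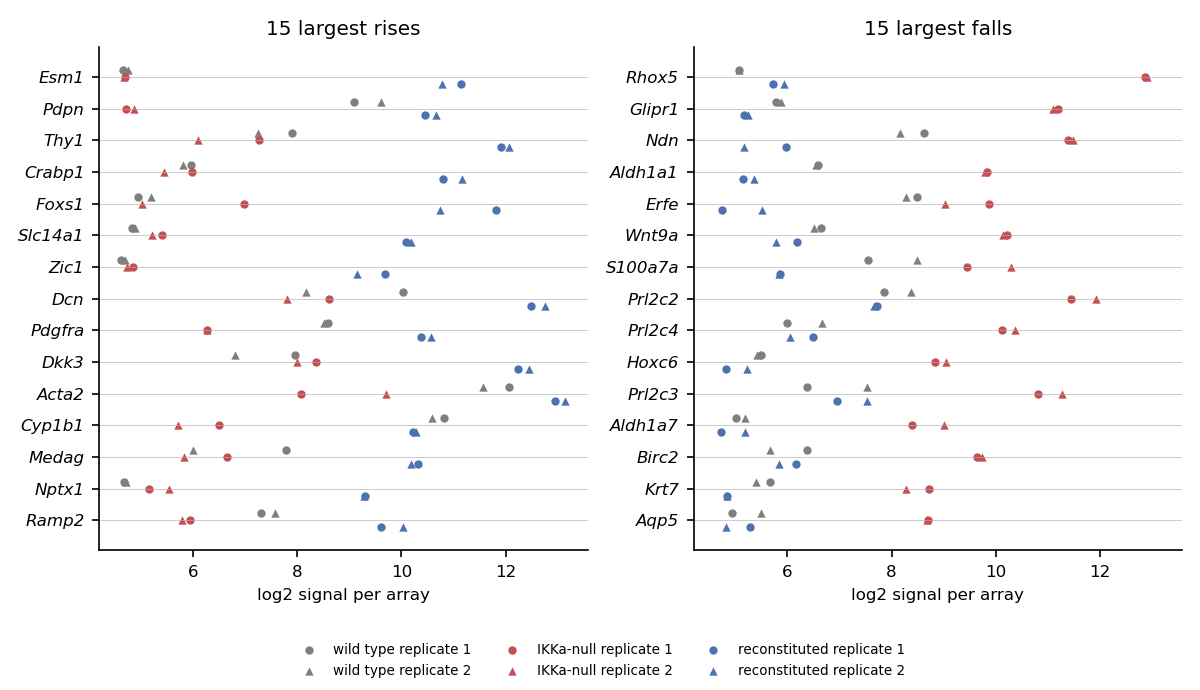
Log2 signal on each of the 6 arrays (horizontal axis) for the 15 largest rises (left) and 15 largest falls (right) among called genes whose 2 groups do not overlap; circles are replicate 1 and triangles replicate 2. Thy1, Foxs1 and Acta2 show the widest gaps between IKKa-null replicates among the rises, and Cyp1b1 is the rise in which wild-type cells (grey) reach reconstituted cells (blue).

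Genes that mark fibroblasts had the largest share of higher members among the lists with at least 5 tested genes. The lists were chosen with earlier results of these data known, so shares and rankings of lists are a description. Of 17 tested, 7 were higher (41.18%) and 0 lower, with a median log2 change of 0.45 against -0.02 for all genes. The count of higher members was between 5 and 7 whichever array was left out. Under median scaling 5 were higher and 1 lower, and with no background correction 7 and 1. Of the 23 listed genes on the array, 6 were not above background on any array, Fap, Nt5e and Cd248 among them. Pdpn, a membrane glycoprotein of stromal cells, gave 4.72 and 4.86 in IKKa-null and 10.45 and 10.66 in reconstituted cells, at least 23.5-fold higher (adjusted p = 6.41e-05). Wild-type cells were close behind, at 9.09 and 9.61. Pdgfra, the receptor for PDGF that is common on mesenchymal cells, gave 6.27 and 6.26 against 10.38 and 10.57. Its rise was 18.4-fold (log2 change 4.21 ± 0.17 SE, adjusted p = 6.98e-05), and 8.82-fold with no background correction. Wild-type cells lay between at 8.59 and 8.51. Prrx1, a homeobox factor of limb and facial mesenchyme, rose 3.83-fold (6.17 and 5.76 to 8.03 and 7.78). Thy1, a surface glycoprotein of fibroblasts, gave 7.27 and 6.09 against 11.91 and 12.06, with 7.90 and 7.24 in wild-type cells. The 2 IKKa-null arrays differed for Thy1. Its log2 change was 5.89 without IKKa-null replicate 1 and 4.72 without IKKa-null replicate 2. With both it was 5.30 (39.5-fold, and 20.6-fold with no background correction). The remaining 3 higher members were the collagen receptor Itga11 (at least 1.86-fold), the mesenchymal factor Twist2 (2.2-fold) and the collagen uptake receptor Mrc2 (1.74-fold), which are named here beyond the naming rule. S100a4 and Cd44 gave log2 changes of -0.27 and -0.17 that were not called (adjusted p = 0.615 and 0.607). Of the 17 tested members, 12 had a log2 change above 0 and 5 below, the lowest at -0.875. Vim, also on this list, was above background only in IKKa-null cells.

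The interstitial matrix showed a similar direction. Proteoglycans and matricellular proteins, the soluble and fibre-bound components between collagen fibrils, had 9 of 29 tested members higher (31.03%) and 1 lower, with a median of 0.38. Under median scaling 7 were higher and 3 lower. Dcn, the collagen-binding proteoglycan decorin, gave 8.61 and 7.80 in IKKa-null and 12.49 and 12.76 in reconstituted cells, a 21.4-fold rise that all 4 of its probes shared (adjusted p = 0.00369). Wild-type cells spread from 10.03 to 8.18 for it. Tgfbi, an adhesion protein induced by TGF-beta, gave 7.44 and 7.37 against 11.01 and 11.32, a 13.6-fold rise (adjusted p = 0.000128), and was at background in wild-type cells (5.96 and 5.80). Thbs2, a thrombospondin that limits vessel growth, rose at least 3.16-fold to 7.28 and 8.03. Ogn, the proteoglycan osteoglycin, went the other way: 7.44 and 7.35 in IKKa-null against 5.70 and 6.11 in reconstituted cells, at least 2.28-fold lower (adjusted p = 0.00615).

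Fibrillar and interstitial collagens with their processing enzymes had 4 of 19 tested members higher (21.05%) and 0 lower, with a median of 0.43. Col3a1, the alpha chain of type III collagen, gave 6.69 and 6.06 against 8.20 and 8.71, a 4.22-fold rise (log2 change 2.08 ± 0.38 SE, adjusted p = 0.0152). The type VI collagen chains Col6a1 and Col6a2, whose genes are neighbours on chromosome 10, rose 2.72-fold and 2.27-fold, and Col16a1, a collagen associated with fibrils, 2.4-fold. Each of these 4 calls was lost when certain arrays were left out. Col3a1 and Col16a1 lost theirs without IKKa-null replicate 2 (1.76 and 1.01) or reconstituted replicate 2 (1.82 and 1.23). Col6a1 lost its call without either IKKa-null replicate or reconstituted replicate 2 (1.20 to 1.48), and Col6a2 without any array but reconstituted replicate 1 (0.82 to 1.28). The list had 0 higher members without IKKa-null replicate 2, and 0 higher and 1 lower without reconstituted replicate 2. With no background correction 6 were higher and 3 lower, and under median scaling 2 were higher. Col1a1, the main chain of type I collagen, gave 9.25 and 9.04 against 9.67 and 9.78, a log2 change of 0.58 that was not called (adjusted p = 0.111).

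Basement membrane genes, which encode the sheet of type IV collagen, laminins, nidogens and perlecan beneath epithelia and around vessels and muscle, had 6 of 14 tested members lower (42.86%) and 1 higher. The count of lower members was 2 to 4 when 1 array was left out. Col4a1 and Col4a2, the chains of the common type IV collagen trimer, accounted for the largest falls. Col4a1 gave 8.31 and 8.43 in IKKa-null and 4.93 and 4.94, within background, in reconstituted cells, at least 4.48-fold lower (log2 change -3.43 ± 0.17 SE, adjusted p = 0.000128). With no background correction the fold was 3.84. Col4a2 gave 10.63 and 10.08 against 6.30 and 7.15, 12.3-fold lower (adjusted p = 0.000759). In wild-type cells the signals were 10.36 and 10.56 for Col4a1 and 11.80 and 11.74 for Col4a2, so the reconstituted arrays were the lowest of the 6 for both chains.

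The Col4a1 and Col4a2 genes are transcribed in opposite directions on chromosome 8, and RefSeq places their starts so close that 1 stretch serves as the promoter of both. It is printed because the 2 genes fell together. The bases of RefSeq's GRCm38.p6 at chr8:11312777-11312854, forward strand, lie inside the promoter windows of both genes, which run from 250 bases before to 50 after each start. Capitals mark the 22 bases from the Col4a2 start to the Col4a1 start, which both transcripts contain.
Col4a1 and Col4a2: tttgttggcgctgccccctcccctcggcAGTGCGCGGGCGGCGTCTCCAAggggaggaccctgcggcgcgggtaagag

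Nid1, the linker protein nidogen that binds laminin to type IV collagen, rose in the same cells. It gave 8.46 and 8.24 in IKKa-null and 10.48 and 10.63 in reconstituted cells, a 4.61-fold rise (adjusted p = 0.000619), with wild-type cells at 10.47 and 10.29. Agrn, the heparan sulfate proteoglycan agrin, and Col4a5, an X-linked type IV collagen chain, fell by 1.03 and 0.95 on the log2 scale. Agrn lost its call when any 1 of the 6 arrays was left out (-1.30 to -0.76), and Col4a5 without either IKKa-null or either reconstituted replicate (-1.06 to -0.84). Only 1 of the 2 Col4a5 probes was called.

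**Figure D3:**
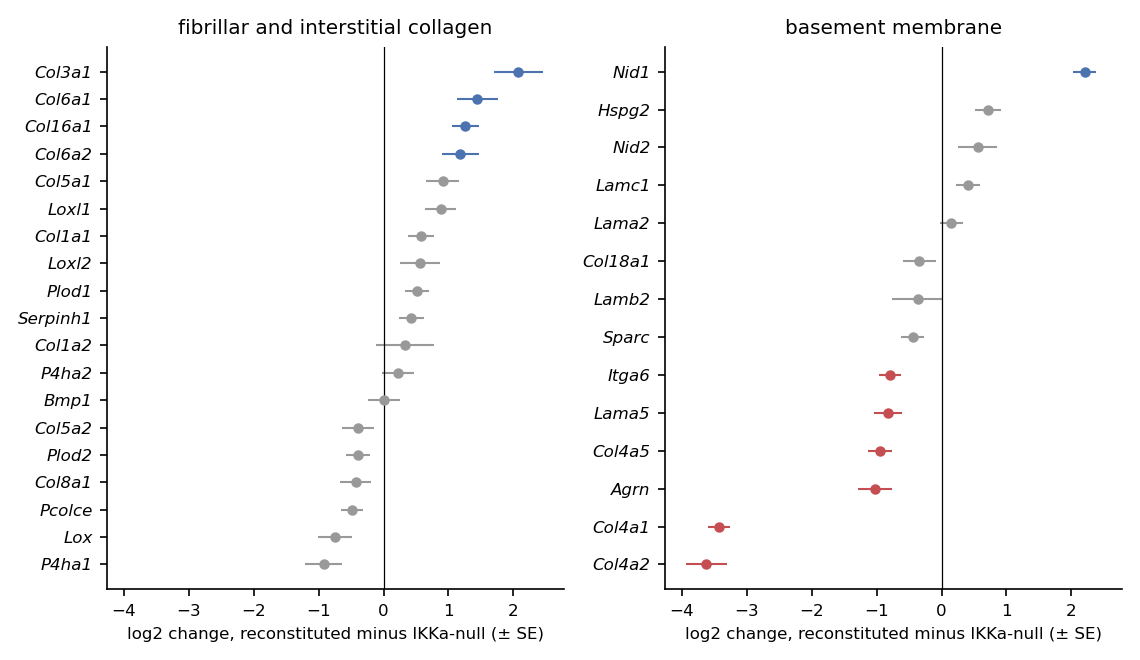
Log2 change from IKKa-null to reconstituted cells with its standard error for each tested collagen or collagen-processing gene (left, 19) and each tested basement membrane gene (right, 14); blue genes were called higher, red lower, grey not called. Col4a1 and Col4a2 stand apart at the lower end, and Nid1 is the 1 basement membrane gene called higher.

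Proteases and their inhibitors, which turn the matrix over, showed no common direction: 2 of 21 were higher and 3 lower (median -0.03). Serpinf1, the antiangiogenic serpin PEDF, gave 10.26 and 10.05 against 13.13 and 13.48, an 8.85-fold rise (adjusted p = 0.000948). Htra1, a secreted serine protease that cleaves matrix and growth factor binding proteins, gave 10.15 and 9.82 against 7.66 and 7.38, 5.52-fold lower (adjusted p = 0.000592). These 2 held whichever array was left out. Adam19, a membrane protease, rose by 1.20 but lost its call without any array except reconstituted replicate 1 (0.81 to 1.23). Timp3, an inhibitor of metalloproteases, fell by 1.16 and lost its call without either IKKa-null replicate or reconstituted replicate 1 (-1.35 to -0.92). Mmp13, a collagenase, fell at least 1.14-fold and lost its call without either IKKa-null replicate or reconstituted replicate 2 (-1.03 to -0.77).

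Smooth muscle and myofibroblast genes, for contractile fibres and their regulators, had 4 of 19 members higher (21.05%) and 0 lower. These 4 were called whichever array was left out: Acta2, the factor Foxs1 and the LIM proteins Csrp1 and Csrp2. The other 15 tested members were not called. Acta2, smooth muscle actin and the usual marker of myofibroblasts, gave 8.08 and 9.70 in IKKa-null, 12.96 and 13.15 in reconstituted and 12.07 and 11.56 in wild-type cells. Its rise of 17.9-fold (log2 change 4.16 ± 0.48 SE, adjusted p = 0.00242) was 10.2-fold without IKKa-null replicate 1 and 31.3-fold without IKKa-null replicate 2. The 2 IKKa-null arrays thus set much of the size of this rise, not its direction. Foxs1, a forkhead factor of pericytes and smooth muscle, gave 6.99 and 5.02 against 11.81 and 10.73, 38.6-fold higher. That fold was 76.3 when IKKa-null replicate 1 was left out and 19.5 when replicate 2 was. Foxs1 was above background on 1 of the 2 IKKa-null arrays, and its rise was 16.1-fold with no background correction. Csrp1 and Csrp2, LIM proteins of smooth muscle, rose 2.78-fold and 4.59-fold, Csrp2 from 9.33 and 9.26 to 11.18 and 11.81. Of the 33 listed genes, 10 on the array were not above background on any array, among them the smooth muscle markers Cnn1, Myh11, Lmod1 and Tagln.

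The promoter of Acta2 is shown because serum response factor acts on smooth muscle genes through CArG boxes. The RefSeq GRCm38.p6 window chr19:34255324-34255623, reverse strand, runs from 250 bases before to 50 after the start. Capitals mark 2 near-matches to the CArG box, searched as CCNNNNNNGG with at least 5 of the 6 inner letters A or T, a pattern that reads the same on both strands.
Acta2: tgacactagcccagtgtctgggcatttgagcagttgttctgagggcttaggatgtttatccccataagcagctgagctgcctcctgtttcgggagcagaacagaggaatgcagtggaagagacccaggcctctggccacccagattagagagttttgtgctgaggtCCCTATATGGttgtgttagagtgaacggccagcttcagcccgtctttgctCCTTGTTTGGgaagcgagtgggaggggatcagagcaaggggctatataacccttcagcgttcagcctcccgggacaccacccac

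The 2 matches begin 84 and 34 bases before the start. At least 1 near-match was found in 9.98% of all 32851 promoter windows and 2 or more in 0.822%. Of the 17 tested smooth muscle genes with a window, 5 held a near-match (Acta2, Cnn2, Mrtfa, Srf and Vcl), of which Acta2 was the 1 called. The matches are a description of the sequence, and binding to them was not tested.

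Developmental transcription factors, which specify embryonic regions and lineages, had 6 of 27 tested members higher (22.22%) and 2 lower. Zic1, a zinc finger factor of neural tube and dorsal mesoderm, gave 4.85 and 4.74 in IKKa-null and 9.69 and 9.15 in reconstituted cells, at least 10.8-fold higher (adjusted p = 0.000116). It was within background in wild-type cells, at 4.63 and 4.70. Foxs1, whose rise was larger, and Prrx1, whose rise was smaller, are described above. Gata6, a factor of endoderm and smooth muscle, rose 3.71-fold (6.58 and 5.46 to 8.14 and 7.68) and was highest in wild-type cells (9.89 and 9.04). Its call was lost without IKKa-null replicate 2 (1.33) or either reconstituted replicate (1.66 and 2.12). Foxd1, a forkhead factor of kidney stroma, fell at least 2.49-fold, from 7.56 and 7.48 to 5.04 and 4.89 (adjusted p = 0.000302). Msx1, a homeobox factor of limb and tooth mesenchyme, gave 5.96 and 6.17 in IKKa-null cells, above background on 1 of 2 arrays, against 4.89 and 4.84, within background. It was called lower (adjusted p = 0.0102) and lost that call without IKKa-null replicate 2 (-1.09) or reconstituted replicate 2 (-1.17).

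Hox genes, the positional code along the body axis, moved both ways: 2 of 15 tested members of the positional list were higher and 3 lower, or 0 and 4 under median scaling. The 3 that fell were Hoxc6, Hoxc9 and Hoxb9. Hoxc6 gave 8.83 and 9.04 against 4.82 and 5.22, at least 6.64-fold lower (adjusted p = 0.000131), with 5.50 and 5.41 in wild-type cells. Another gene of the Hoxc cluster, Hoxc9, gave 7.24 and 7.33 against 4.55 and 4.93, at least 2.12-fold lower. Hoxb9 gave 6.72 and 6.35 against 5.07 and 4.72, at least 1.26-fold lower, and was far higher in wild-type cells (9.03 and 8.80). All 3 were within background on both reconstituted arrays. Hoxa5 and Hoxa7 rose by 1.27 and 0.84. Both lost their calls without either IKKa-null replicate or reconstituted replicate 2, and Hoxa7 also without reconstituted replicate 1 (1.06 to 1.43 for Hoxa5, 0.81 to 0.87 for Hoxa7). Of the 49 listed genes, 27 on the array were not above background on any array.

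Imprinted genes, expressed from the copy of 1 parent, had 4 of 11 members lower (36.36%) and 2 higher. Ndn, a growth-restraining gene of the Prader-Willi region, gave 11.38 and 11.49 in IKKa-null, 5.98 and 5.16 in reconstituted and 8.62 and 8.17 in wild-type cells, a 58.3-fold fall (adjusted p = 0.000131). Only 1 of the 2 reconstituted arrays was above background for Ndn, and its fall was 20.6-fold with no background correction. Snrpn, a splicing protein gene of the same region, gave 9.85 and 9.81 against 7.38 and 7.34, 5.54-fold lower (adjusted p = 0.000394). Its probes cannot be told apart from those of Snurf, which shares its transcript. Ndn, Snurf and Snrpn are neighbours on chromosome 7 among the tested genes. Peg3, a paternally expressed zinc finger gene elsewhere on that chromosome, gave 8.80 and 9.11 against 6.67 and 6.56, 5.07-fold lower (adjusted p = 0.000452). Igf2, a fetal growth factor, gave 9.10 and 8.57 against 6.26 and 6.38, 5.72-fold lower (adjusted p = 0.0027). For all 4 of these genes the wild-type arrays lay between the other groups. Dcn, described above, and Slc38a4, an amino acid transporter imprinted in mouse, were the 2 that rose. Slc38a4 rose at least 1.72-fold to 7.10 and 6.46, below the wild-type 8.61 and 8.91, and lost its call without either IKKa-null replicate (1.58 and 1.40).

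Of 9 tested genes for Rhox factors, DNA methylation and the repair enzyme Mgmt, 0 were higher and 2 lower, Rhox5 and Mgmt. None of the tested DNA methylation genes was called. Mgmt, which removes alkyl groups from guanine in DNA, gave 10.60 and 10.85 in IKKa-null and 9.11 and 9.02 in reconstituted cells, 3.16-fold lower (adjusted p = 0.00162), and 5.16 and 5.18, within background, in wild-type cells. Unlike Rhox5, Mgmt therefore stayed far above wild-type cells in reconstituted cells.

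TGF-beta and BMP genes had 5 of 28 members higher and 3 lower, with a median log2 change of 0.01. Under median scaling 4 were higher and 6 lower, with a median of -0.17. Among the ligands, Bmp4 gave 10.85 and 10.64 in IKKa-null and 7.83 and 8.24 in reconstituted cells, 6.56-fold lower (adjusted p = 0.00135), with wild-type cells at 9.41 and 8.74. Inhbb, a subunit of activin B, was 3.04-fold lower, at 6.42 and 6.78 against 8.03 and 8.38. Among the antagonists, Grem1, which binds BMPs, was 3.94-fold higher (6.62 and 6.95 to 8.81 and 8.71, adjusted p = 0.00142). Fst, the activin antagonist follistatin, was 4.49-fold lower (9.22 and 9.39 to 7.07 and 7.21, adjusted p = 0.00117). Fstl1, a secreted protein related to follistatin, rose 3.39-fold. Ligands and antagonists thus each held genes that fell, and antagonists also genes that rose. The latent TGF-beta binding proteins Ltbp2 and Ltbp4, which tether proteins to matrix fibres, rose at least 4.44-fold and 2.71-fold. For Ltbp2, whose reconstituted signals were 7.55 and 8.74, the log2 change was 2.85, and 3.45 and 2.26 without reconstituted replicates 1 and 2. Its call was lost without IKKa-null replicate 1 (2.77).

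Wnt pathway genes had 3 of 17 members higher and 2 lower. Dkk3, a dickkopf protein that is secreted, gave 8.36 and 7.99 against 12.23 and 12.46, an 18-fold rise (adjusted p = 0.000807), with 7.96 and 6.80 in wild-type cells. Wnt9a, a Wnt ligand of joint formation, gave 10.22 and 10.14 against 6.19 and 5.79, 18.3-fold lower (adjusted p = 0.000116), with 6.65 and 6.51 in wild-type cells. Wnt9a was above background on 1 of the 2 reconstituted arrays, and 7.94-fold lower with no background correction. The receptors Fzd7 and Fzd6 changed by 1.04 and -1.11 and the potentiator Rspo2 by 0.93. Fzd7 lost its call without either IKKa-null replicate or reconstituted replicate 2 (0.77 to 1.05), Fzd6 without IKKa-null replicate 1 or either reconstituted replicate (-1.21 to -0.85), and Rspo2 without any 1 of the 4 arrays compared (0.75 to 1.11).

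Of 8 IGF pathway genes 0 were higher and 3 lower: Igf2 and Htra1, described above, and Irs1, an adaptor of the insulin and IGF receptors. Irs1 fell by 0.89, from 10.46 and 10.37 to 9.45 and 9.61, and lost its call without any 1 of the 4 arrays compared (-0.97 to -0.81). The median of the list was 0.16 and turned to -0.02 under median scaling.

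Among other growth factors, receptors and chemokines, 8 of 30 were higher (26.67%) and 2 lower, with a median of 0.33. Under median scaling 5 were higher and 5 lower, with a median of 0.08, so the excess of rises depended on the scaling. Ptn, the heparin-binding growth factor pleiotrophin, gave 7.16 and 7.18 against 9.41 and 9.38, a 4.68-fold rise (adjusted p = 0.00631). Robo1, a receptor for Slit guidance proteins, gave 6.02 and 5.65 against 8.17 and 7.86, 4.53-fold higher (adjusted p = 0.00142), and its ligand Slit2 rose 2.73-fold, from 6.70 and 7.63 to 8.90 and 8.34. Receptor and ligand were thus both higher, but Slit2 lost its call without any array other than IKKa-null replicate 2 (0.98 to 1.73). Of the tyrosine kinase receptors, Epha2, which binds ephrins, fell 3.16-fold (9.24 and 8.83 to 7.51 and 7.24, adjusted p = 0.00506), and Egfr, the EGF receptor, 2.65-fold (8.45 and 8.72 to 7.41 and 6.96). Egfr lost its call without either IKKa-null replicate or reconstituted replicate 2 (-1.54 to -1.18).

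Few genes of the IKK and NF-kB pathway itself were called. Of 18 tested, 1 was higher (5.56%) and 2 lower (11.11%), with a median of 0.07, close to the shares over all genes. Ikbkg, the X-linked gene of NEMO, gave 8.21 and 8.41 in IKKa-null and 7.35 and 7.03 in reconstituted cells, 2.18-fold lower (adjusted p = 0.0118), with 7.33 and 7.48 in wild-type cells. Only 1 of its 2 probes was called, and Ikbkg was no longer called without IKKa-null replicate 2 (-1.02) or reconstituted replicate 2 (-0.96). Cyld, a deubiquitinase that restrains the pathway, gave 9.57 and 9.80 against 8.35 and 8.61, 2.3-fold lower on all 3 of its probes (adjusted p = 0.00796), and lost its call without IKKa-null replicate 2 (-1.09). Traf1, an adaptor of TNF receptors and also an NF-kB target, gave 6.04 and 5.19 against 7.63 and 6.65, a log2 change of 1.52 (adjusted p = 0.0435) that was lost without any array except reconstituted replicate 2 (1.03 to 1.95).

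Inflammatory and NF-kB target genes had 1 of 25 members higher (Traf1) and 4 lower (16%), with a median of -0.40. Birc2 and Birc3, inhibitors of apoptosis that also ubiquitinate kinases of the pathway, were 12.9-fold and at least 3.66-fold lower. With no background correction they were 5.8-fold and 3.21-fold lower. Birc2 was above background on 1 of the 2 reconstituted arrays. Bcl2l1, the survival protein BCL-XL, gave 8.18 and 8.28 against 6.53 and 6.10, 3.77-fold lower on both of its probes (adjusted p = 0.00343). Ptgs2, the prostaglandin synthase COX-2, gave 8.30 and 7.22 against 6.23 and 5.54, 3.67-fold lower, and lost its call without IKKa-null replicate 1 (-1.34) or reconstituted replicate 2 (-1.53). The 4 that fell do not include a cytokine or chemokine.

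Arrays of the same group differed strongly for these genes. The arrays numbered 1 were brighter than those numbered 2 by a median of 1.66 in IKKa-null cells (22 of 25 genes), 1.62 in reconstituted cells (25 of 25) and 0.70 in wild-type cells (18 of 25). Among genes picked for this after their values were seen, the chemokine Cxcl1 gave 14.51 and 10.17 in IKKa-null and 13.88 and 8.21 in reconstituted cells. Nfkbia, the gene of the inhibitor IkBa, gave 9.95 and 5.99 against 10.57 and 5.69. Neither was called, and the spread between replicates exceeded the difference between groups. Comparing replicate 1 with replicate 1, the median of reconstituted minus IKKa-null was -0.38, and comparing replicate 2 with replicate 2 it was -0.30, each from a single array per group. Leaving out 1 array turned the sign of the list's median. It was 0.73 without IKKa-null replicate 1, 0.81 without reconstituted replicate 2, -1.66 without IKKa-null replicate 2 and -1.59 without reconstituted replicate 1. Each of these omissions leaves unequal numbers of arrays 1 and 2 in the comparison. The part of the array number in these results was not tested.

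Of 5 tested targets of the noncanonical branch, 1 was higher. Cxcl12, a chemokine that retains blood cells in tissue, gave 8.41 and 8.75 in IKKa-null and 10.41 and 10.41 in reconstituted cells, a 3.56-fold rise on both of its probes (adjusted p = 0.00141). Wild-type cells had more, at 11.08 and 10.97. Cxcl12 was called whichever array was left out. The lymphoid chemokines Cxcl13 and Ccl21a were not above background on any array.

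Interferon-stimulated genes, the antiviral programme, had changes mostly below 0. Of 15 tested, 14 had a log2 change below 0 and the median was -1.18, but 2 were called lower (13.33%) and 0 higher. Irgm1, a GTPase that acts against intracellular bacteria, gave 9.97 and 9.17 against 7.37 and 7.94, 3.77-fold lower (adjusted p = 0.01). Ifi27l2a, a small interferon-induced membrane protein, gave 11.32 and 9.61 against 7.38 and 7.59, a log2 change of -2.98 (adjusted p = 0.0254). Its change was -2.13 and not called without IKKa-null replicate 1 and -3.84 without IKKa-null replicate 2, and its call was also lost without either reconstituted replicate (-2.87 and -3.09). Between replicates, all 15 genes were brighter on the array numbered 1 in IKKa-null and in wild-type cells (medians 1.39 and 1.30), and 4 of 15 in reconstituted cells (median -0.21). The median of reconstituted minus IKKa-null was -1.96 between the replicates 1 and -0.58 between the replicates 2. The number of genes called lower was between 1 and 6 when 1 array was left out and 11 under median scaling.

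**Figure D4:**
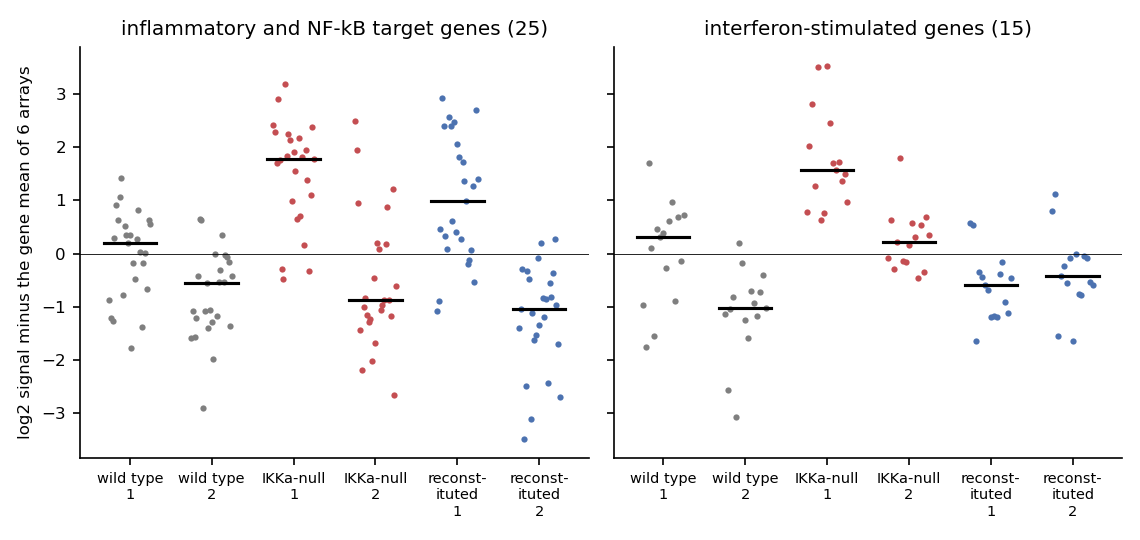
Log2 signal minus the gene's mean over the 6 arrays (vertical axis) for 25 NF-kB target genes (left) and 15 interferon-stimulated genes (right); each point is 1 gene and each bar the median of an array. NF-kB targets are brighter on the arrays numbered 1 in IKKa-null and reconstituted cells, and interferon-stimulated genes are brightest on IKKa-null replicate 1.

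Antigen presentation genes had 0 of 11 members higher and 1 lower, H2-Q7, a class I gene. H2-Q7 gave 6.10 and 6.10 against 5.52 and 5.26 (log2 change -0.71, adjusted p = 0.0435), a call lost without any 1 of the 6 arrays (-0.83 to -0.58). Its family shares sequence, so the gene is uncertain. Immediate early genes, the transient response to serum and stress, had 0 called by limma among 19 (3 at an unadjusted p under 0.05; 2 with no background correction), with a median of 0.12. It turned to -0.10 under median scaling, and ran from -0.70 without IKKa-null replicate 2 to 0.83 without IKKa-null replicate 1. Klf6 gave 11.97 and 11.18 in IKKa-null and 12.30 and 10.73 in reconstituted cells, and Dusp1, a phosphatase of MAP kinases, 12.77 and 11.93 against 11.65 and 10.42. The change of Dusp1 was -1.31 (adjusted p = 0.114), and it was called without reconstituted replicate 1 (-1.93). These genes were brighter on the array numbered 1 by a median of 1.31 in IKKa-null cells (19 of 19) and 1.06 in reconstituted cells (18 of 19), and 0.05 in wild-type cells.

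Targets of p53, the stress-activated tumour suppressor, had the largest share of lower members among the lists with at least 5 tested genes. This ranking is likewise a description, since earlier results were known when the lists were chosen. Of 16 tested, 0 were higher and 8 lower (50%), with a median of -0.86, and 5 to 9 were lower whichever array was left out. Mdm2, the ubiquitin ligase that removes p53, gave 12.88 and 13.02 in IKKa-null and 10.86 and 10.35 in reconstituted cells, 5.07-fold lower on both of its probes (adjusted p = 0.000913). Wild-type cells were at 11.02 and 10.95. Cdkn1a, the CDK inhibitor p21, gave 11.78 and 11.84 against 10.35 and 9.87, 3.25-fold lower (log2 change -1.70 ± 0.22 SE, adjusted p = 0.00402), with 9.18 and 8.86 in wild-type cells. Pmaip1, the death-promoting BH3 protein NOXA, fell at least 2.14-fold from 7.36 and 7.25 to 5.87 and 5.01, and Trp53inp1, a stress protein of the p53 response, 3.11-fold from 8.53 and 8.57 to 7.21 and 6.61. Pmaip1 lost its call without IKKa-null replicate 1 (-1.81) and Trp53inp1 without either IKKa-null replicate or reconstituted replicate 2 (-1.66 to -1.34). The SV40 large T antigen target, of a viral protein that binds p53, was within background in IKKa-null cells, at 88.6 and 111.8 units. It gave 212.3 and 203.2 units in reconstituted cells and 4431.6 and 6076.1 in wild-type cells. The part of large T in these results was not tested.

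A binding element for p53 lies in the promoter of Cdkn1a and is shown because Cdkn1a is the best known target. The bases are from RefSeq's GRCm38.p6 at chr17:29090908-29090967, forward strand, inside the window of an upstream Cdkn1a start. Capitals mark the element, 2 abutting decamers of the p53 motif with at most 1 mismatch in 20 bases. The motif is symmetric, so a match on either strand is found.
Cdkn1a: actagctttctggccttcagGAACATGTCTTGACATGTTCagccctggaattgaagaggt

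Such an element was found in 0.088% of all promoter windows and in those of 3 of the 12 tested p53 target genes that have one: Ccng1, Cdkn1a and Gtse1. All 3 were among the 8 called lower, out of 16 tested members. The list was made of p53 targets, which favours such elements, so the overlap is a description. Binding of p53 was not tested.

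Few genes of DNA replication and mitosis were called, which with 2 arrays per group does not show equal levels. DNA replication genes had 0 of 36 higher and 1 lower, and mitosis genes 1 of 23 higher and 1 lower, shares at or under those of all genes. Their medians of 0.09 and 0.16 turned to -0.12 and -0.06 under median scaling. By limma, 6 of the 36 and 5 of the 23 passed an unadjusted p under 0.05. Rrm2, the regulated subunit of ribonucleotide reductase, fell by 1.02 on 1 of its 2 probes and lost its call without any array but reconstituted replicate 1 (-1.26 to -0.77). The kinesin Kif2c rose by 0.98 and Pttg1, securin, fell by 1.30. Both lost their calls without either IKKa-null replicate or reconstituted replicate 2 (0.84 to 1.04 and -1.33 to -1.08). Among cyclins, CDKs and their inhibitors, 1 of 20 was higher (5%) and 3 lower (15%), with a median of -0.36. By limma, 8 of the 20 passed an unadjusted p under 0.05. Cdkn2c, the CDK4 inhibitor p18, rose 3.24-fold (7.82 and 8.24 to 9.57 and 9.88). Besides Cdkn1a, Cdkn2b, the inhibitor p15, fell 2.2-fold and Rb1, the retinoblastoma protein that CDKs inactivate, 2.18-fold. Cdkn2b and Cdkn2c lost their calls without IKKa-null replicate 1 (-0.96 and 1.49) or reconstituted replicate 2 (-1.06 and 1.54), and Rb1 without either IKKa-null replicate or reconstituted replicate 2 (-1.22 to -1.01).

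Regulators of apoptosis had 3 of 19 members higher (15.79%) and 4 lower (21.05%). The lower ones, Birc2, Birc3, Bcl2l1 and Pmaip1, are described with the NF-kB and p53 targets; the first 3 oppose cell death and Pmaip1 promotes it. Among the higher ones, Bok, a BAX-like death effector, gave 8.81 and 8.84 against 10.44 and 10.67, a 3.32-fold rise (adjusted p = 0.00162). The initiator caspases Casp2 and Casp9 rose 2.12-fold and 1.73-fold. Casp2 lost its call without IKKa-null replicate 1 (0.996) or reconstituted replicate 2 (0.995), and Casp9 without any array except reconstituted replicate 2 (0.57 to 0.82).

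Birc2, Birc3 and Yap1 follow one another on chromosome 9. Yap1, the coactivator restrained by the Hippo pathway, gave 13.02 and 12.81 in IKKa-null and 9.31 and 9.61 in reconstituted cells, 11.0-fold lower (adjusted p = 0.000142), with 9.77 and 9.81 in wild-type cells. Birc2 gave 9.65 and 9.73 against 6.16 and 5.85 on the same scale, and Birc3 8.25 and 7.90 against 5.07 and 4.92, with wild-type cells at 6.38 and 5.66 for Birc2 and 4.75 and 4.88 for Birc3. The IKKa-null arrays were therefore the ones that stood apart. In the order of the RefSeq gene table, the next tested genes, Cfap300 and Cep126, which encode proteins of cilia, also fell, at least 7.45-fold and at least 1.68-fold (log2 changes -3.44 and -2.30, adjusted p = 0.000488 and 0.00135). Among all tested genes in chromosome order there were 15 runs of 3 or more neighbours called the same way, and 2 of these, this one included, held 5 genes. Cfap300 and Cep126 were chosen after their values were seen.

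YAP and TEAD genes had 1 of 18 members higher and 5 lower (27.78%), with a median of -0.56. Beside Yap1 itself, Crim1, a membrane protein that binds BMPs, fell 2.52-fold (10.09 and 9.87 to 8.71 and 8.59), Nuak2, a kinase, 2.28-fold (9.02 and 9.12 to 7.81 and 7.95) and Amotl2, a junction protein that retains YAP, 2.12-fold. Crim1 lost its call without IKKa-null replicate 1 (-1.22), Nuak2 without IKKa-null replicate 2 (-1.14) and Amotl2 without either IKKa-null replicate or reconstituted replicate 2 (-1.30 to -0.87). With 1 array left out, the list had 2 to 6 lower members. Tead2, a DNA-binding partner of YAP, went the other way, 3.19-fold higher at 9.87 and 10.21 against 8.59 and 8.16 (adjusted p = 0.00464).

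**Figure D5:**
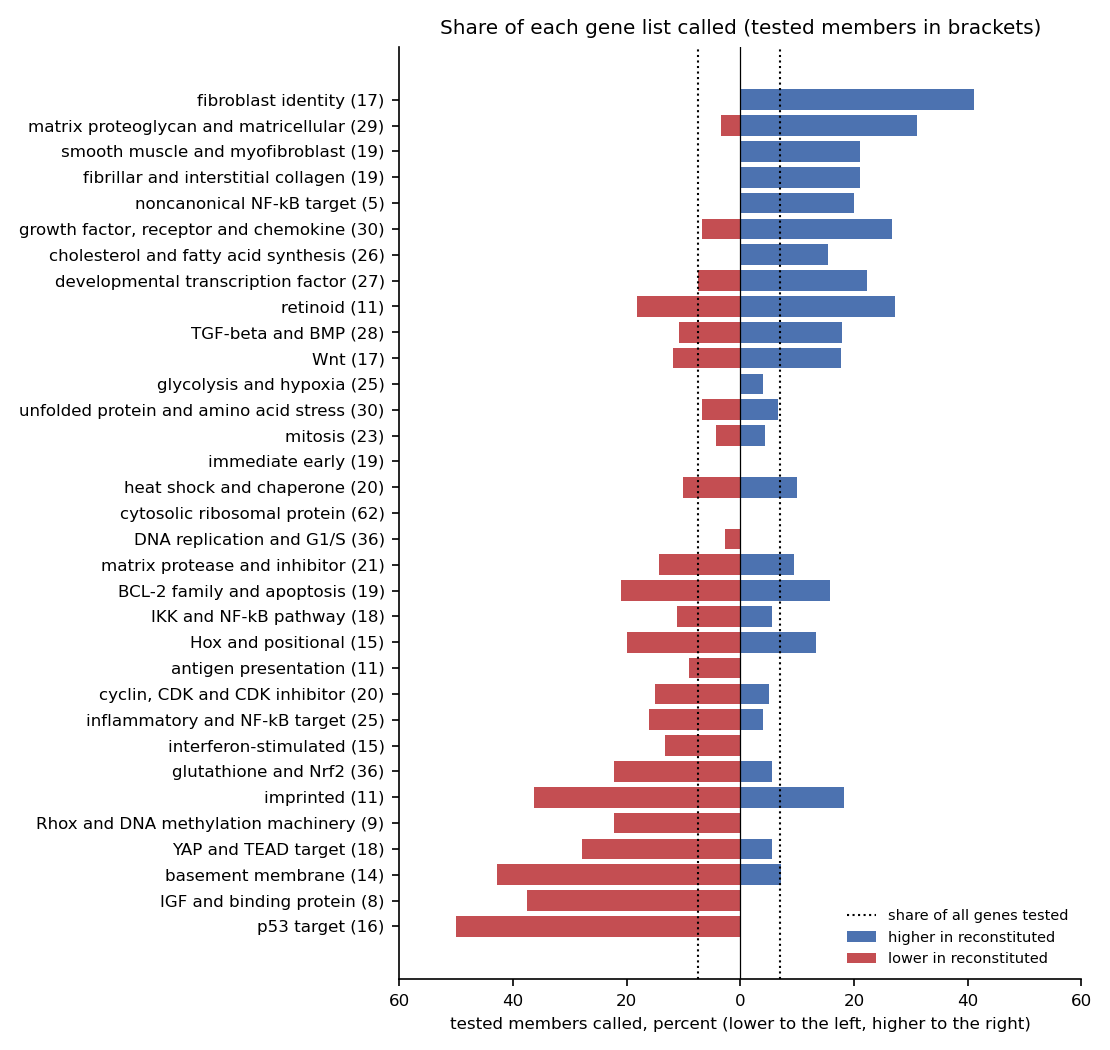
Percentage of the tested members of each gene list called higher (blue, to the right) or lower (red, to the left) in reconstituted cells, for lists with at least 5 tested members; dotted lines mark the shares over all 7407 genes (6.9% and 7.44%). Fibroblast, proteoglycan, smooth muscle and collagen lists lie at the top, and p53 target, IGF and basement membrane lists at the bottom. The lists were chosen with earlier results of these data known, so their order is a description.

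Glutathione and Nrf2 genes, which detoxify electrophiles and oxidants, had 8 of 36 members lower (22.22%) and 2 higher, with a median of -0.32, and 3 to 7 were lower when 1 array was left out. Mgst2, a microsomal glutathione transferase, gave 9.91 and 9.53 in IKKa-null and 6.73 and 5.69 in reconstituted cells, 11.4-fold lower (adjusted p = 0.00123), and 4.72 and 4.94, within background, in wild-type cells. Its relative Mgst1 fell at least 1.6-fold. Gstm2, a cytosolic transferase, gave 11.47 and 11.75 against 8.63 and 8.88, 7.23-fold lower on all 3 of its probes (adjusted p = 0.000422), while Gstm5 gave 8.58 and 8.25 against 9.86 and 9.59, 2.49-fold higher. The mu class shares much sequence, so its members may share signal and are uncertain as separate genes. Gstm5 lost its call without IKKa-null replicate 2 (1.15). Ephx1, an epoxide hydrolase, fell 2.51-fold and lost its call without either IKKa-null replicate (-1.39 and -1.26). Gpx7, a peroxidase of the endoplasmic reticulum, gave 4.97 and 5.44 against 8.08 and 8.35, at least 4.65-fold higher (adjusted p = 0.000365), and 3.18-fold with no background correction.

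Retinoid genes had 3 of 11 members higher and 2 lower. Binding protein Crabp1 and the oxidase Cyp1b1 are among the largest rises. Aldh1a1, a dehydrogenase that makes retinoic acid, gave 9.83 and 9.78 against 5.15 and 5.36, at least 12.1-fold lower (adjusted p = 5.9e-05), and its close relative Aldh1a7 8.40 and 9.0 against 4.73 and 5.18, at least 5.64-fold lower. The related Aldh1a2 and Aldh1a3 were not above background on any array. Wild-type cells had 6.59 and 6.55 for Aldh1a1 and were within background for Aldh1a7. The coding sequences of these paralogs are alike, so the 2 probes may share signal. Tgm2, a transglutaminase induced by retinoic acid, rose at least 1.49-fold and lost its call without any 1 of the 4 arrays compared (1.20 to 1.38).

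Cholesterol and fatty acid synthesis genes had 4 of 26 members higher (15.38%) and 0 lower, with a median of 0.43 and 20 of 26 above 0. Tm7sf2, a sterol reductase, gave 5.94 and 6.14 against 7.81 and 7.94, 3.57-fold higher on both of its probes (adjusted p = 0.0013). Lss, lanosterol synthase, gave 7.68 and 7.62 against 9.39 and 9.09, 3.01-fold higher (adjusted p = 0.0023). Scd1, a fatty acid desaturase, and Mvd, an enzyme of the mevalonate pathway, rose 2.21-fold and 2.1-fold. Mvd lost its call without IKKa-null replicate 2 (1.01), and Scd1 without either IKKa-null replicate or reconstituted replicate 2 (1.04 to 1.25). Both were also lost under median scaling (0.94 and 0.93), where 2 members of the list were higher and its median was 0.18.

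Other housekeeping programmes showed few calls. Glycolysis and hypoxia genes had 1 of 25 higher, Eno2, an enolase of neurons (0.76, lost without any 1 of the 6 arrays at 0.65 to 0.88). Unfolded protein and amino acid stress genes had 2 of 30 higher and 2 lower. The receptor Vldlr rose by 1.23 on 1 of its 2 probes and Sel1l, of protein degradation in the endoplasmic reticulum, by 0.65. Phgdh, the entry enzyme of serine synthesis, fell by 1.15 and Wars, the tryptophan tRNA ligase, by 0.65. Sel1l and Wars lost their calls without any 1 of the 6 arrays (0.54 to 0.77 and -0.67 to -0.62). Phgdh did so without either IKKa-null replicate or reconstituted replicate 2 (-1.29 to -0.97), and Vldlr without either IKKa-null replicate or reconstituted replicate 1 (1.01 to 1.24). Cytosolic ribosomal protein genes had 0 of 62 called by limma, with a median of 0.01 that turned to -0.13 under median scaling, 3 passed an unadjusted p under 0.05, and 1 was called with no background correction. Their brightest members, Rpl41 and Rps14, gave log2 changes of 0.00 and -0.04, and Actb and Gapdh 0.17 and 0.00 (adjusted p = 0.575 for Actb). Quantile normalisation gives the brightest probes of every array nearly the same values, so changes near 0 for these genes do not show stable levels. Rpl41 was at -0.13 under median scaling and 0.052 under cyclic loess.

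Heat shock and chaperone genes had 2 of 20 higher and 2 lower. Hspb1, the small heat shock protein HSP27, gave 4.88 and 4.66, within background, in IKKa-null and 8.33 and 7.82 in reconstituted cells, at least 4.24-fold higher (adjusted p = 0.000312). Wild-type cells had far more, at 11.37 and 11.64. Cryab, a small heat shock protein of lens and muscle, moved the other way, from 13.79 and 14.22 to 11.79 and 12.00, 4.32-fold lower (adjusted p = 0.00153), toward the wild-type 11.04 and 10.73. Hspa2, a relative of HSP70, rose 2.17-fold and Hsp90aa1, the inducible HSP90, fell 2.06-fold. Both lost their calls without either IKKa-null replicate or reconstituted replicate 2 (0.83 to 1.17 and -1.12 to -0.97).

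Markers of other cell types were mostly within background. Of 16 epithelial markers on the array, 9 were not above background on any array, Cdh1, Krt8, Krt18 and Ocln among them. Of 7 tested, 3 were lower. Krt19, a simple epithelial keratin, gave 7.88 and 7.34 against 5.08 and 4.66, at least 2.65-fold lower (adjusted p = 0.000879), with wild-type cells at 7.76 and 7.94. Krt7, another simple keratin, gave 8.71 and 8.28 against 4.83 and 4.84, at least 4.9-fold lower (adjusted p = 0.000175), with 5.66 and 5.40 in wild-type cells. Krt14, a basal keratin next to Krt19 among the tested genes of chromosome 11, gave 6.03 and 6.10 against 5.02 and 4.77 and lost its call without IKKa-null replicate 2 (-1.13). The summed raw intensity of the epithelial list was 2819 and 2775 units in IKKa-null and 2272 and 2000.3 in reconstituted cells. Its part in the other results was not tested.

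Of 11 endothelial markers, 8 were not above background on any array, among them Pecam1, Cdh5, Kdr and Tek. Flt1, a VEGF receptor, gave 8.72 and 8.42 against 9.75 and 9.62, 2.16-fold higher, and lost its call without IKKa-null replicate 2 (0.96). Ncam1, an adhesion molecule of nerve and muscle, gave 7.24 and 7.65 against 9.55 and 9.43, 4.13-fold higher on both of its probes (adjusted p = 0.00117), while 9 of 12 neural and glial markers, Gfap, Map2, Snap25 and Sox10 among them, were not above background on any array. The remaining 2, Tubb3, a tubulin, and Nes, the filament protein nestin, are named after their values were seen. Tubb3 gave 6.09 and 6.03 against 6.47 and 6.67, and Nes 8.50 and 8.50 against 8.28 and 7.47. Neither was called (adjusted p = 0.1 and 0.245). The adipocyte marker Lpl, lipoprotein lipase, was 3.52-fold lower, at 5.87 and 6.52 against 8.06 and 7.96, and lost its call without either IKKa-null replicate (-1.77 and -1.87). The remaining adipocyte markers Adipoq, Fabp4, Pparg and Plin1 were not above background. Skeletal muscle, cartilage and bone, and macrophage markers had 0 called members by limma among 3, 2 and 1 tested (1, 0 and 1 at an unadjusted p under 0.05). In this fit Tnnt2 and Tnnc1 gave -0.03 and -0.66, Sox9 and Acan -0.13 and -0.19, and Cd14 -1.08 (adjusted p = 0.956, 0.0727, 0.865, 0.556 and 0.149). All 12 germ cell and pluripotency markers were within background on every array.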

How the data were processed

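The sample titles gave each array's group and replicate number. Per the file headers, the authors' array files hold 1 raw average bead intensity per target (BeadStudio 1.5.0.34), neither normalized nor error-modelled. The deposited series matrix holds quantile-normalised intensities. It was used to name targets (29534 of 46120 had 1 gene symbol) and as an alternative. The members compared and the gene lists were chosen with earlier results of these data known.

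Intensities were background-corrected with nec of limma 3.58.1 (R 4.3.3), quantile-normalised and log2-transformed. The files give no detection values, so 394 background probes (352 for immune receptor segments, 42 spike or non-mouse controls) stood in as negative controls, with an offset of 16. Detection required that fewer than 1% of background probes reach the signal. The fit took the 11648 probes that passed on 2 or more of the 6 arrays. Group means were fitted to all 6 arrays (lmFit, eBayes, 3 residual degrees of freedom), tested two-sided with Benjamini-Hochberg adjustment. The code of the fit was checked on simulated data with independent noise for each probe and array. Deviations shared between arrays were not simulated, so false calls under them were not tested. A gene is represented by its brightest probe on average. For a bound, each dim array counted at its lowest detected signal or the probe's own, whichever was higher, and the average was set against the bright group's mean. Named genes were the 15 largest rises and falls, up to 4 called members per list and direction, and the brightest 2 where none was called; others are said to be outside this rule. Promoters and neighbour order came from RefSeq tables of GRCm38.p6; no build is named in the array files. Signal over background and the number of arrays limit the precision. Alternatives changed the background correction, the normalization, the filter, the arrays fitted and the replicate block.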

Additional observations from a re-analysis of the deposited data

Results flagged for a closer look

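Some targets for vectors and viruses, which belong to no comparison of genes, lay above background in cells whose labels do not name them. Values are raw intensities, mean of 2 arrays, with background medians of 100.8 to 114.5. For Moloney murine sarcoma virus, the 5' LTR target reached 3393 units in IKKa-null cells (3260.7 and 3524.9) but 255.8 in reconstituted cells (292 and 219.5), and was within background in wild-type cells (94.1 and 119.2). The extended retroviral packaging signal gave 225.1 units in IKKa-null cells (206.1 and 244.1) and was within background in reconstituted cells. Neomycin resistance signal averaged 2332 units in the IKKa-null group and 3048 in the reconstituted group, with arrays between 2230.7 and 3458.1, against 106.5 and 117.8 in wild-type cells. The SV40 large T antigen target gave 207.8 units in reconstituted cells (212.3 and 203.2) and was within background in IKKa-null cells.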

How the results depend on the processing

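Of 144 genes named under the rule, 131 were called, and 76 of these were called under all 15 alternatives that tested them; none of the 131 turned its direction under an alternative. Another scaling mattered most among the normalizations. Under median scaling, which shifted all probes (median -0.17, against -0.01), 349 probes were higher and 574 lower, so that 37.81% of calls were higher against 48.43% otherwise, and 22 named calls were lost. Every named call lost under another setting was also lost when some array was left out. Leaving out 1 array gave 285 to 584 higher and 269 to 693 lower probes, with the fewest without IKKa-null replicate 2. With no background correction the 15 largest rises were 5.57-fold to 22.4-fold and the 15 largest falls 4.36-fold to 50.6-fold, all called. Of the 131 called genes, 57 had a fold over 1.5 times smaller under that setting. Probes higher and lower numbered 584 and 583 with only the 4 arrays compared.

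The replicate numbers were not shown to pair the samples: deviations of same-numbered arrays correlated at 0.371 between IKKa-null and reconstituted, 0.298 between wild-type and IKKa-null and 0.051 between wild-type and reconstituted cells. With the replicate block, 824 probes were higher and 873 lower, 4 named calls were lost, and 7 of 15 interferon-stimulated genes were lower, against 2 without it.

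The direction turned for some genes that were not called. With 1 array left out, Klf6 ran from -0.84 (without reconstituted replicate 1) to 0.73 (without reconstituted replicate 2; 0.34 without IKKa-null replicate 1), and Sox9 from -0.54 to 0.29 under the same settings. Tnnt2 ran from -0.34 to 0.27 and Gapdh from -0.11 to 0.11 without reconstituted replicates 1 and 2, in opposite orders, Xist from -0.17 to 0.20 without IKKa-null replicates 2 and 1, and Rps14 reached 0.030 without reconstituted replicate 1. Xist was -0.050 without reconstituted replicate 2 and Gapdh -0.0056 without IKKa-null replicate 2. Median scaling gave -0.13 for Rpl41, 0.0025 for Tnnt2 and -0.078 for Gapdh. Cyclic loess gave 0.052 for Rpl41, 0.059 for Rps14 and 0.12 for Tnnt2, and the series matrix values -0.0014 for Gapdh. The causes were not tested.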

Other observations

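A second run of 5 neighbours among the tested genes, on chromosome 4, was lower in reconstituted cells; its genes were chosen after their values were seen. Lrrc47 gave 9.03 and 9.09 in IKKa-null and 7.76 and 8.31 in reconstituted cells, and Tprgl, a presynaptic protein gene, 8.74 and 8.99 against 7.84 and 7.87. Pank4, a relative of the pantothenate kinases, gave 7.97 and 8.11 against 6.93 and 6.83, Rer1, a sorting receptor of the Golgi, 10.24 and 10.34 against 9.53 and 9.33, and Ski, a corepressor of TGF-beta signalling, 7.4 and 7.15 against 6.38 and 6.07. The log2 changes lay between -1.16 and -0.86 (adjusted p between 0.0066 and 0.0256), and for all 5 both reconstituted arrays were below the other 4 arrays.

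Besides the named vector targets, 287 numbered targets on the arrays carry no gene name. Of these, 7 were above 1000 units in IKKa-null cells, at 1777.7 to 12463.6 units, against 134.6 to 1992.2 in reconstituted cells and at most 169.6 in wild-type cells. Their ratio of IKKa-null over reconstituted intensity ran from 7.66 to 17.6. These 7 were picked by their IKKa-null signal, which favours such ratios, so the contrast is a description. Numbered targets bright in the other groups were not counted. Of 13 targets for mitochondrial transcripts, 11 were above background on all 6 arrays, with a median log2 change of -0.06 (-0.45 to 0.31).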
